A study of Homo sapiens with 6 samples.

Results

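Genes for transcription factors that direct myeloid blood development were looked up by their gene symbols in a count table of THP-1 cells with and without a knockdown of NFIC: SPI1, CEBPA, CEBPB, CEBPD, CEBPE, GFI1, IRF8, KLF4, RUNX1 and MYB. All 10 of these genes were found among the 33981 genes of the table. THP-1 cells are an established line of monocytic type that came from an acute myeloid leukemia, and NFIC is a transcription factor of the nuclear factor I family. Per the labels, the cells received a scrambled shRNA (control, 3 samples) or an shRNA against NFIC (3 samples) by lentiviral infection on retronectin, were sorted for GFP 4 days later and were sequenced as bulk RNA. The methods of the study speak of a control vector with GFP alone, and the wording of the labels was followed. Both groups were the same parental line, both carried a vector with GFP, and the NFIC shRNA, which the labels do not name, is called sh494 in the study. No other NFIC shRNA is named for the sequencing. An effect of less NFIC and any other effect of that shRNA therefore cannot be told apart here. Nothing in the labels says whether the 3 samples of a group came from separate cultures, so the p-values measure only the spread between these samples, which may be technical.

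Myeloid transcription factors act together rather than singly. PU.1, encoded by SPI1, opens myeloid enhancers, and its partners decide between fates: C/EBP alpha is needed for granulocyte and monocyte progenitors, IRF8 and KLF4 for monocytes, and GFI1 and C/EBP epsilon for granulocytes. RUNX1 and MYB act earlier, in stem cells and progenitors, and MYB is commonly required by leukemic cells, including those with MLL fusions such as THP-1.

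The libraries held between 20369543 and 24809720 counts, and 3 counts, taken as the smallest detectable amount, corresponded to between 0.121 and 0.147 CPM, the counts of a gene relative to the library total and, for the levels given below, scaled by TMM factors. This floor covers counting error only. NFIC itself stood at 42.1, 41.4 and 42.2 CPM in the scrambled libraries against 19.4, 22.3 and 21.4 CPM in the knockdown libraries, 50.1% of the control mean. The summed level of 13 genes that mark monocytic cells lay between 2690 and 2768 CPM in controls and between 3902 and 4319 CPM in knockdown libraries, and 8 of the 13 were higher and 4 lower, where 29.6% of all genes were higher and 30.3% lower in the test described below. Most of the rise of the sum was S100A9, a calcium-binding protein gene, which went from 531 to 1649 CPM, while CD4, CD68, CSF1R and CD33 were lower. Markers of other cell types were low. Of 9 markers of T and B lymphocytes, 4 could be tested, and their sum lay between 9.99 and 11.4 CPM in controls and between 5.24 and 5.98 CPM in knockdown libraries. Of 9 markers of erythroid cells and megakaryocytes, 1 could be tested (1.59 to 2.03 CPM, then 0.867 to 1.16 CPM), and HBB was at 0 counts in 5 of the 6 libraries. Of 7 epithelial and kidney markers, 2 could be tested (sum 4.99 to 5.08 CPM, then 1.26 to 1.94 CPM). The part of these markers in the results that follow was not tested.

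Of the 10 factors, 5 changed with NFIC knockdown. CEBPE, GFI1 and CEBPB were higher, CEBPA and IRF8 were lower, and SPI1, CEBPD, KLF4, RUNX1 and MYB did not pass the test. The test was edgeR's quasi-likelihood test on the raw counts, fitted on the 19182 genes that passed its filter on low counts, all 10 factors among them, with Benjamini-Hochberg adjustment over all 19182 and a threshold of 0.05. In that test 59.9% of all genes were called, 29.6% higher and 30.3% lower, so that 5 of 10 called, 3 higher and 2 lower, is close to the share of genes called anywhere in the table. The count of 5 includes CEBPB, whose call was close to the threshold. In other fits the count moved, for instance to 4 with upper-quartile scaling and to 6 without NFIC shRNA replicate 3. The groups did not overlap in CPM for 5 of the 10 factors, against 65.2% of all genes tested. The changes of the factors were small. Their median absolute log2 fold change was 0.15, beside 0.37 over all genes tested, and their median signed log2 fold change was 0.06, beside -0.01. The factors and all genes tested were not matched for expression level in these comparisons.

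**Figure D1:**
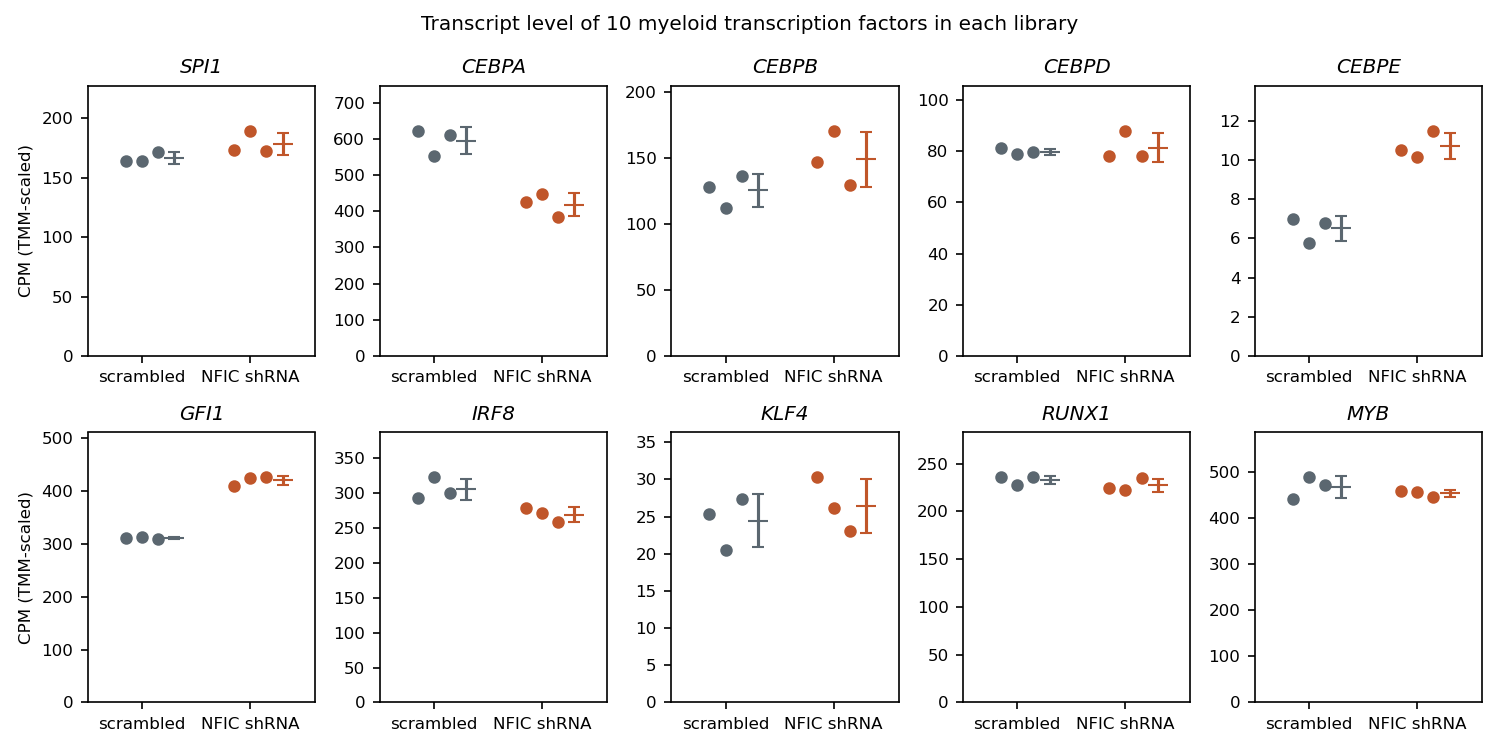
Transcript level of each of the 10 factors in CPM, scaled by TMM library factors, on axes that start at 0 and differ between panels. Each point is 1 library, and the bar beside the points is the mean with the SD of 3 libraries. CEBPA fell from 595 to 419 CPM and GFI1 rose from 311 to 421 CPM with no overlap between the groups, whereas the points of CEBPD, KLF4, RUNX1 and MYB overlapped.

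The stretch upstream of a start site is shown for 3 of the 5 factors that changed, because their changes were the largest of the 10. Each is the 250 bases before a RefSeq transcript start on GRCh38.p14, read 5′ to 3′ on the strand of the gene, with none of its bases in a GENCODE exon of that gene. The CEBPA stretch (chr19:33302535-33302784, minus strand) lies between the start of CEBPA and that of the divergent non-coding gene CEBPA-DT. The CEBPE stretch is chr14:23119256-23119505 on the minus strand. It precedes an inner start and lies within the span of the gene (23117036 to 23120256), outside its exons. GFI1 is shown at the starts of its outermost transcript (chr1:92486926-92487175, minus strand) and of an inner one (chr1:92486100-92486349, minus strand). Capitals mark matches, on either strand, to short binding motifs of nuclear factor I, C/EBP, ETS, RUNX and MYB proteins.

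CEBPA: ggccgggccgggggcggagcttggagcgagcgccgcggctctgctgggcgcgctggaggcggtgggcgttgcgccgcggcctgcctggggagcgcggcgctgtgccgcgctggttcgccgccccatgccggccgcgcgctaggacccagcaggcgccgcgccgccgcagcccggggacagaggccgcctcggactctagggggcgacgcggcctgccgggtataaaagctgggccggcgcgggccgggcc
CEBPE: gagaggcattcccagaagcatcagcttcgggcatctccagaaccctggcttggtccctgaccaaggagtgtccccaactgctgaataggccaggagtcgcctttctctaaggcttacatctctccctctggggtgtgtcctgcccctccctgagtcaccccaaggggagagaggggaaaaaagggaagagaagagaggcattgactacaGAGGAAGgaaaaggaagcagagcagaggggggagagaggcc
GFI1 outermost start: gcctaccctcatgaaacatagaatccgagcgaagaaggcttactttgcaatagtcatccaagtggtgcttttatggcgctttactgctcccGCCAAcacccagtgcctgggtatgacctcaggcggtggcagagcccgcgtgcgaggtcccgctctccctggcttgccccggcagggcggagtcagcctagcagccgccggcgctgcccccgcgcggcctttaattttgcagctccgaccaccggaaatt
GFI1 inner start: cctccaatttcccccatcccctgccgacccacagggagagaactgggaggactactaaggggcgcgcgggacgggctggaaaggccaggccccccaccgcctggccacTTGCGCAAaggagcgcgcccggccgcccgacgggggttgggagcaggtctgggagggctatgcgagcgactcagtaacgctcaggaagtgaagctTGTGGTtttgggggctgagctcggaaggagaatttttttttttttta

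RefSeq windows were at hand for 8 of the 10 factors, 12 windows in all, and not for SPI1 and CEBPD. The full nuclear factor I site, TTGGC and GCCAA with 5 bases of any kind between them, was in none of the 12 windows and in 0.0285% of 35116 promoter windows of the same length. Its half-site TTGGC, part of the full site, was in 3 of the 12 windows, those of RUNX1, of MYB and of the outermost GFI1 start, and in 40.8% of all windows. In the outermost GFI1 window the half-site lay on the opposite strand, from 159 to 155 bases before the start. The C/EBP site TTGCGCAA was in 1 of the 12 windows, that of the inner GFI1 start (142 to 135 bases before it), and in 0.131% of all windows. The RUNX motif TGTGGT was in the same GFI1 window, 47 to 42 bases before the start, and in an IRF8 window, and in 11.0% of all windows. The ETS motif GAGGAAG, of the kind PU.1 binds, was in the CEBPE window, 41 to 35 bases before that inner start, and in 11.2% of all windows. The MYB motif AACGG was in none of the 12 windows and in 16.5% of all. Apart from the half-site within the full site, no motif searched is part of another. The CEBPA window held none of the 6 motifs, and 81.2% of its bases were G or C, more than in 97.7% of all windows. These matches are a description of the letters and show neither binding nor its absence.

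CEBPA (ENSG00000245848, chromosome 19, 33299934 to 33302534, minus strand, GRCh38) encodes C/EBP alpha, the factor that commits progenitors to the granulocyte and monocyte line. It stood at 622, 553 and 611 CPM in scrambled replicates 1, 2 and 3 and at 426, 447 and 383 CPM in NFIC shRNA replicates 1, 2 and 3. Every knockdown library lay below every control library. The means were 595 ± 37.4 CPM (SD, n = 3) and 419 ± 32.6 CPM (SD, n = 3), and 70.4% of the control level remained. In edgeR it fell by 0.51 on the log2 scale (standard error, SE, 0.061, adjusted p = 1.91e-06). The log2 fold change lay between -0.56 and -0.44 when 1 library at a time was left out. In bulk samples, fewer cells with the transcript and less transcript per cell cannot be told apart, here and for every gene that follows.

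CEBPA is a gene without introns, and 2 non-coding genes on the opposite strand cover part of its exon. AC008738.3 (ENSG00000267580) covers 25.3% of it and AC008738.5 (ENSG00000267727) 18.5%. The counts of AC008738.3 came to between 42.2% and 45.3% of those of CEBPA in every library, and in edgeR it fell by 0.47 on the log2 scale (adjusted p = 3.32e-06). Those of AC008738.5 came to between 26.6% and 30.1%, and it fell by 0.46 on the log2 scale (edgeR, adjusted p = 3.20e-05). Both thus moved in step with CEBPA, in nearly fixed ratio to it. The strand setting of the counting is not given in the sources used here, and without strand, reads of CEBPA and of these antisense genes cannot be told apart.

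The divergent non-coding gene on the other side of the CEBPA start moved the other way. CEBPA-DT (ENSG00000267296, chromosome 19, 33302857 to 33305054, plus strand) begins 322 bases from CEBPA and shares no exon with it, and it was picked out after its values were seen. It had 548, 615 and 567 counts in the scrambled libraries and 757, 995 and 920 in the NFIC shRNA libraries, with no overlap between the groups. In CPM it went from 25.6 ± 0.782 to 39.8 ± 3.08 (SD, n = 3 each), a rise of 0.64 on the log2 scale (SE 0.074, adjusted p = 9.35e-07 in edgeR). It was called in 13 of 13 other fits of the same counts.

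CEBPE (ENSG00000092067, chromosome 14, 23117036 to 23120256, minus strand) encodes C/EBP epsilon, the factor of the late granulocyte stages and of the secondary granule genes. It was the lowest of the 10 factors and had the largest change. It stood at 6.98, 5.77 and 6.77 CPM with scrambled shRNA, which is 151, 142 and 145 counts, and at 10.5, 10.2 and 11.5 CPM with NFIC shRNA, which is 217, 236 and 265 counts. All 3 knockdown libraries lay above all 3 controls. Its rise of 0.72 on the log2 scale passed the test (SE 0.117, adjusted p = 4.08e-05 in edgeR), and 22.5% of all genes tested had a larger absolute change. Of the 8 marker genes of late granulocytes, LTF was at 0 counts in 5 of the 6 libraries, MMP8 did not exceed 10 counts, and LCN2, CEACAM8, FCGR3B and DEFA3 were not in the table. The cathelicidin gene CAMP fell from 1.64 to 0.302 CPM and the chemokine receptor gene CXCR2 rose from 16.4 to 30.5 CPM. The sum of CAMP and CXCR2 went from between 16.4 and 19.4 CPM to between 28.4 and 35.4 CPM, nearly all of it CXCR2, and its part in the rise of CEBPE was not tested.

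CEBPB (ENSG00000172216, chromosome 20, 50190830 to 50192668, plus strand) encodes C/EBP beta, which serves in monocytes, macrophages and emergency granulopoiesis. It stood at 128, 112 and 137 CPM in controls and at 147, 171 and 129 CPM with NFIC shRNA. The groups overlapped, since NFIC shRNA replicate 3 lay below scrambled replicate 3. Its mean rose by 0.25 on the log2 scale, close to the threshold (SE 0.097, adjusted p = 0.0454 in edgeR). The call was lost in 4 of the 6 fits that left out 1 library. Without scrambled replicate 1 the adjusted p from edgeR was 0.0878, without scrambled replicate 2 it was 0.167, without NFIC shRNA replicate 1 it was 0.0699 and without NFIC shRNA replicate 2 it was 0.127. The antisense gene CEBPB-AS1 covers 12.6% of its exon and rose by 0.30 on the log2 scale (edgeR, adjusted p = 0.0100), with overlapping groups.

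CEBPD (ENSG00000221869) encodes C/EBP delta, a factor induced in inflammation and in maturing granulocytes. It stood at 81.2, 78.8 and 79.6 CPM in controls and at 78.2, 88.0 and 78.3 CPM with NFIC shRNA. NFIC shRNA replicate 2 was the highest and the other knockdown libraries lay below the controls. The difference was 0.03 on the log2 scale (95% interval -0.09 to 0.15, adjusted p = 0.690 from edgeR).

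Levels of different genes are compared per length, as fragments per kilobase of gene, depth-scaled (FPKM), that the authors deposited. CEBPA was the highest of the 10 factors in both groups, at 226 ± 14.1 FPKM in controls and 161 ± 11.7 FPKM with NFIC shRNA (SD, n = 3 each). Its share of the summed FPKM of the 4 C/EBP genes lay between 62.3% and 63.2% in the scrambled libraries and between 50.4% and 52.3% in the knockdown libraries. The share of CEBPB lay between 17.9% and 19.7% and then between 24.5% and 27.2%, and that of CEBPE between 1.09% and 1.19% and then between 1.92% and 2.57%. The share of CEBPD, which did not pass the test, lay between 16.9% and 18.5% and then between 19.9% and 21.7%. The share of CEBPA was thus lower, and each of the other 3 shares higher, in every knockdown library than in any control. Since these are shares of the same sum, a fall of CEBPA alone raises the other shares. The FPKM of CEBPB overlapped between the groups, at 60.1 to 73.6 in controls and 70.8 to 92.4 with NFIC shRNA. Those of CEBPD also overlapped, at 62.2 to 63.9 and then 62.0 to 70.0. The sums themselves overlapped, at 336 to 374 FPKM in controls and 289 to 340.4 FPKM with NFIC shRNA.

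**Figure D2:**
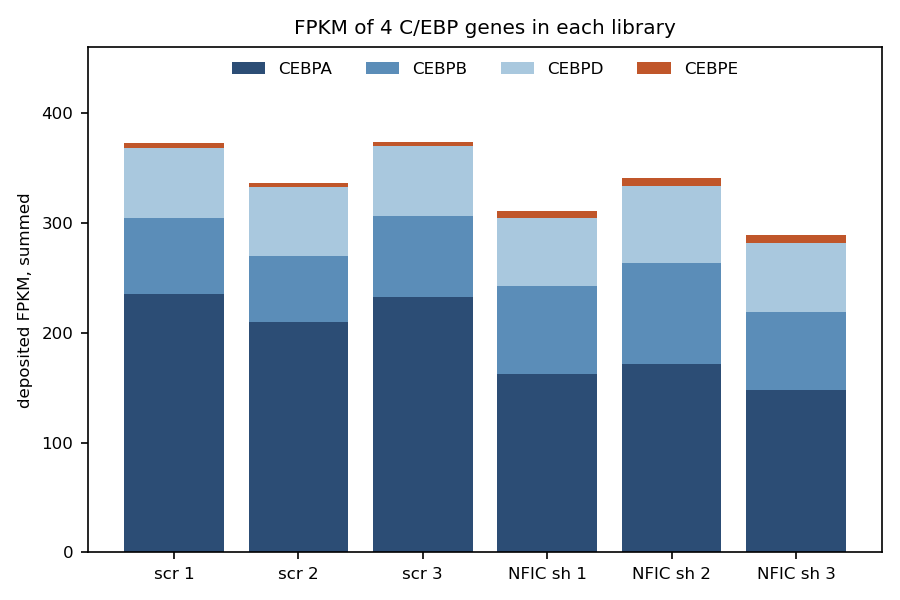
Deposited FPKM of CEBPA, CEBPB, CEBPD and CEBPE, stacked for each of the 6 libraries (scr, scrambled shRNA; NFIC sh, NFIC shRNA), on a linear axis from 0. The CEBPA part of each bar is smaller in the 3 knockdown libraries (148 to 171 FPKM) than in the controls (209.9 to 236 FPKM), and the thin CEBPE part is larger.

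GFI1 (ENSG00000162676, chromosome 1, 92473043 to 92486925, minus strand) encodes a repressor that favours granulocytes over monocytes. It stood at 311, 312 and 309 CPM in controls and at 410.4, 426 and 426 CPM with NFIC shRNA. The libraries of each group lay close together and the groups far apart. GFI1 rose by 0.44 on the log2 scale (SE 0.046) with an adjusted p = 3.36e-07 in edgeR, the smallest adjusted p of the 10 factors. Leaving out 1 library at a time gave values between 0.43 and 0.46.

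IRF8 (ENSG00000140968, chromosome 16, 85899116 to 85922606, plus strand) encodes the interferon regulatory factor that specifies monocytes and dendritic cells. It stood at 293, 323 and 300.4 CPM in controls and at 279, 272 and 259 CPM with NFIC shRNA. The groups were apart, with a narrow gap between scrambled replicate 1 and NFIC shRNA replicate 1. IRF8 fell by 0.18 on the log2 scale (SE 0.052, adjusted p = 0.00638 in edgeR), and 88.2% of the control level remained. It was called in each of the 13 other fits.

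SPI1 (ENSG00000066336, chromosome 11, 47354860 to 47378547, minus strand), the gene of PU.1, stood at 164, 164 and 172 CPM in controls and at 173, 189 and 173 CPM with NFIC shRNA. Every knockdown library lay above every control, by under 1 CPM between the nearest pair. The log2 fold change, 0.10 (95% interval -0.01 to 0.21, adjusted p = 0.112 from edgeR), did not pass the test. Without NFIC shRNA replicate 3 the log2 fold change was 0.13 and the adjusted p from edgeR was 0.0400, the single fit of 13 others that called it.

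KLF4 (ENSG00000136826, chromosome 9, 107484852 to 107490482, minus strand) encodes a zinc finger factor of monocyte differentiation. It stood at 25.4, 20.5 and 27.4 CPM in controls and at 30.3, 26.1 and 23.0 CPM with NFIC shRNA, and the groups overlapped. KLF4 had a log2 fold change of 0.12 (95% interval -0.12 to 0.36, adjusted p = 0.385 from edgeR), the widest interval of the 5 factors that did not pass the test. An antisense gene of GENCODE 44 covers 9.75% of its exons and is not among the genes of the count table. The table was counted on the other annotation, Ensembl release 96, so the level of this antisense gene is not known here.

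RUNX1 and MYB, the factors of the stem and progenitor stages, had the narrowest intervals of the 5 factors that did not pass the test. RUNX1 (ENSG00000159216, chromosome 21, 34787801 to 36004667, minus strand) stood at 236, 228 and 236 CPM in controls and at 225, 222 and 235 CPM with NFIC shRNA. The fit gave it a log2 fold change of -0.03 (95% interval -0.14 to 0.07, adjusted p = 0.552 from edgeR). MYB (ENSG00000118513, chromosome 6, 135181308 to 135219173, plus strand) stood at 441, 489 and 473 CPM in controls and at 459, 458 and 445 CPM with NFIC shRNA. The fit gave MYB a log2 fold change of -0.04 (95% interval -0.15 to 0.06, adjusted p = 0.479 from edgeR). For both genes the groups overlapped.

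**Figure D3:**
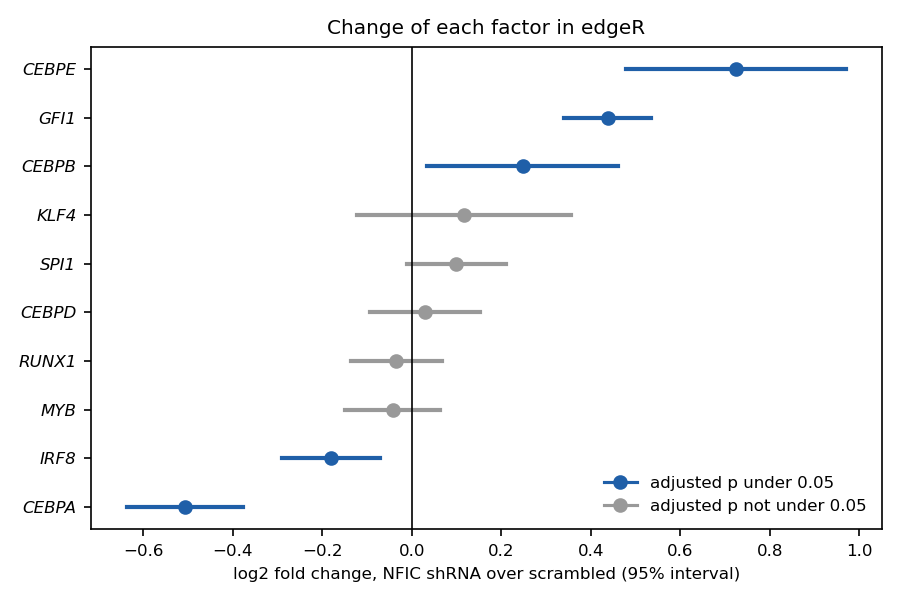
Log2 fold change of NFIC shRNA over scrambled shRNA for the 10 factors, ordered by size, with the 95% interval of the edgeR fit as a line. Blue marks the 5 factors called at an adjusted p under 0.05, from CEBPE at 0.72 to CEBPA at -0.51, and grey the 5 that were not.

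On the FPKM scale the order of the factors in the scrambled libraries was CEBPA, MYB (84.0 ± 4.54 FPKM), SPI1 (79.5 ± 2.47), CEBPB (67.5 ± 6.82), CEBPD (63.0 ± 0.822), IRF8 (62.9 ± 3.21), GFI1 (60.5 ± 0.317), RUNX1 (14.8 ± 0.278), KLF4 (6.59 ± 0.968) and CEBPE (4.14 ± 0.409), each with SD over 3 libraries. MYB overlapped SPI1, and the neighbours from CEBPB to GFI1 each overlapped the next. The order depends on the gene length that FPKM divide by, which was 15574 bases for RUNX1 and 1252 for CEBPD. For IRF8 it was 4800 bases, where its GENCODE exons cover 7847, so places between genes of different structure are approximate. With NFIC shRNA, GFI1 moved from place 7 to place 3, at 82.9 ± 2.19 FPKM, where it overlapped SPI1 above it (86.0 ± 4.49) and MYB below it (82.4 ± 0.842). IRF8 stood at 56.1 ± 1.74 FPKM, CEBPB at 80.9 ± 10.9 and CEBPD at 65.0 ± 4.41, and KLF4 (7.21 ± 0.948) now overlapped CEBPE (6.90 ± 0.477) at the foot of the order.

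Pairs of factors with opposing or joint roles were compared within each library as the log2 ratio of their counts, which needs no library scaling. The ratio of CEBPA to SPI1, a pair that acts jointly in early myeloid cells, was 1.93, 1.76 and 1.83 in controls and 1.30, 1.24 and 1.15 with NFIC shRNA. The ratio of GFI1 to IRF8, the granulocyte against the monocyte side, was 0.08, -0.05 and 0.04 and then 0.56, 0.65 and 0.72. For both ratios the groups did not overlap. The mean differences were -0.61 and 0.62, and each had a two-sided exact permutation p = 0.1, the smallest that 3 against 3 libraries can give.

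The ratio of CEBPE to CEBPA, the late against the early granulocyte factor, was -6.47, -6.58 and -6.49 in controls and -5.33, -5.46 and -5.06 with NFIC shRNA. The difference was 1.23 on the log2 scale (two-sided exact permutation p = 0.1). The ratio of MYB to CEBPB, a progenitor against a differentiation factor, was 1.78, 2.13 and 1.79 and then 1.64, 1.42 and 1.78. Here scrambled replicate 1 and NFIC shRNA replicate 3 stood nearly level, and the difference of -0.28 had an exact permutation p = 0.2. In all, 4 ratios were computed. The 2 members of a ratio were tested singly above, and CEBPA enters 2 of the ratios.

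**Figure D4:**
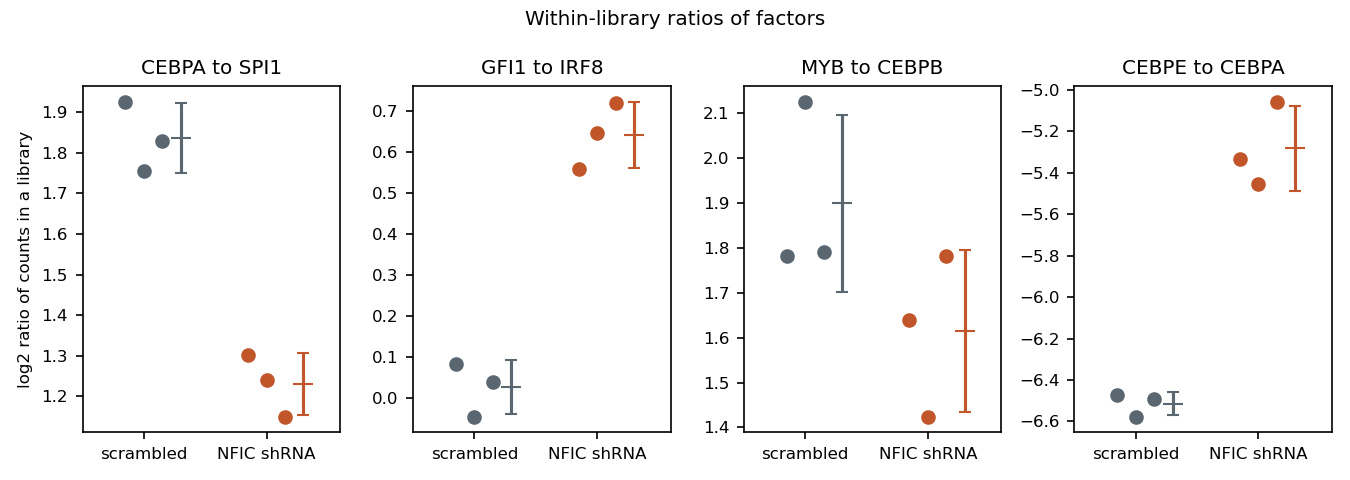
Log2 ratio of the counts of 2 factors in each library for 4 pairs, with the mean and SD of 3 libraries beside the points. The axes differ between panels and do not start at 0, since the values are logarithms. The groups are apart for CEBPA to SPI1, GFI1 to IRF8 and CEBPE to CEBPA, and close for MYB to CEBPB.

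The genes around the 10 factors were described in 13 lists written from general knowledge, with 109 genes tested, of which 75.2% were called, beside 59.9% of all genes. These shares were not matched for expression level. Each gene named as higher or lower below passed the edgeR test at the adjusted threshold of 0.05. Among 8 relatives and regulators of the C/EBP proteins, 3 were higher and 3 lower (median log2 fold change -0.13). DDIT3, a stress-induced C/EBP protein, was higher (0.46), and NFIL3, a related basic leucine zipper repressor, was lower (-0.60). TRIB1, a pseudokinase that sends C/EBP alpha to degradation, was lower (-0.41). In the RUNX and CBF complex, CBFB, the partner that stabilises RUNX proteins on DNA, was higher (log2 fold change 0.51), from 120 to 172 CPM. RUNX2 (-0.44) and RUNX3 (-0.37), the other genes of the family, were lower, so that of the 5 genes tested 2 were higher and 3 lower, where CBFA2T2 (adjusted p = 0.0496 from edgeR) was called higher in 5 of 13 other fits and lost its call without scrambled replicate 2 or 3 and without NFIC shRNA replicate 1 or 2.

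Of 8 ETS family genes tested, 4 were higher and 2 lower (median log2 fold change 0.02), or 4 lower with upper-quartile scaling. SPIB, the closest relative of SPI1, was lower (-0.77) but low throughout, at 2.74 and 1.62 CPM. ETS2 was lower (-0.66), and ETS1 (0.41) and FLI1 (0.37) were higher. Of 6 relatives of IRF8 tested, 4 were higher and 1 lower (median 0.27), and 2 were higher without scrambled replicate 2. IRF1 rose from 28.7 ± 0.598 to 61.9 ± 1.16 CPM (log2 fold change 1.11) and IRF9, the DNA-binding part of the type I interferon complex, from 17.9 ± 0.927 to 38.4 ± 2.78 CPM (log2 fold change 1.10), with SD over 3 libraries each. IRF5 was lower (-0.25).

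Of 6 genes of the GFI1 repressor complex, 1 was higher and 3 lower (median log2 fold change -0.07). RCOR1, the CoREST scaffold, was higher (0.55). The deacetylase gene HDAC2 (-0.52) and the histone methyltransferase gene EHMT2 (-0.42) were lower. The remaining lower gene, KDM1A (-0.14, adjusted p = 0.0477 from edgeR), had overlapping groups and was called in 5 of 13 other fits. Of 5 relatives and coactivators of MYB, 2 were higher and 1 lower. The count of higher genes was 1 with upper-quartile scaling and without scrambled replicate 3, NFIC shRNA replicate 1 or NFIC shRNA replicate 3, and EP300 was called in 8 of 13 other fits. MYBL1 was higher (1.07) at 2.93 and 6.10 CPM, and CREBBP, the acetyltransferase that MYB recruits, was lower (-0.63), from 134 to 86.8 CPM. Of 9 other Kruppel-like factor genes tested, 3 were higher, led by KLF2 (0.75), and 3 lower, led by KLF11 (-1.09).

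Of 9 other monocyte and macrophage factors, 1 was higher and 4 lower (median log2 fold change -0.19), or 2 lower without NFIC shRNA replicate 1, with TFEC higher (0.48) and BATF3 (-0.75) and NR4A1 (-0.54) lower. Of 8 stem cell and erythroid factors tested, 4 were higher and 0 lower in edgeR, 0 also at an unadjusted p under 0.05 (median 0.14). HLF, TAL1 and GATA1 did not pass the low-count filter, and their few counts were lower with NFIC shRNA. HLF had 8, 12 and 10 counts in the scrambled libraries and 2, 3 and 0 in the knockdown libraries. TAL1 had 5, 8 and 9 and then 0, 2 and 4, and GATA1 had 3, 4 and 0 and then 0 in each. DESeq2 called 1 gene lower, as did edgeR without the filter and without scrambled replicate 1 or any 1 of the NFIC shRNA replicates. HHEX (0.77), NFE2 (0.54) and GATA2 (0.52) were the 3 with the largest rise.

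Genes known as targets of the factors were described in the same way, from lists that rest on general knowledge and not on binding in these cells. Of 12 C/EBP targets tested, 3 were higher and 9 lower (median log2 fold change -0.63), and the summed level of the list lay between 6511 and 7265 CPM in controls and between 4016 and 4123 CPM with NFIC shRNA. Most of this fall lay in 4 genes of azurophil granule proteins, CTSG (2214 to 1325 CPM), AZU1 (1105 to 372 CPM), ELANE (2130.5 to 1488 CPM) and PRTN3 (639 to 187 CPM). The azurophil granule genes PRTN3 (-1.77) and AZU1 (-1.57) and the differentiation inhibitor ID1 (-2.02) were lower. BPI, a bactericidal granule protein, was higher (3.55). Of 12 MYB targets tested, 4 were higher and 8 lower (median -0.42). The growth factor receptor gene KIT was at -1.09 and the cell cycle kinase gene CDK6 at 0.37, neither being the largest change in its direction. The lists share genes, ELANE and MPO being in both of these. MPO, counted as lower in both, had overlapping groups (adjusted p = 0.0468 from edgeR) and was called in 7 of 13 other fits.

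Of 14 PU.1 targets tested, 5 were higher and 5 lower (median log2 fold change 0.02). NCF1 (1.61), a subunit gene of the phagocyte oxidase, and the integrin gene ITGAM (0.99) were higher. CD33 (-0.97), CD68 (-1.01) and TLR4 (-0.64), genes of monocyte surface and lysosomal proteins, were lower. Other such genes of the list were higher, the surface receptor gene CD14 (0.65) and the lysozyme gene LYZ (0.72) among them. NCF1 has near-identical pseudogene copies, and how reads shared with them were counted is not given in the sources used here. Of 11 IRF8 targets tested, 4 were higher and 4 lower (median -0.07), with the lysosomal protease gene CTSS higher (0.67) and CD74, the invariant chain of antigen presentation, lower (-1.12), from 423 to 194 CPM.

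**Figure D5:**
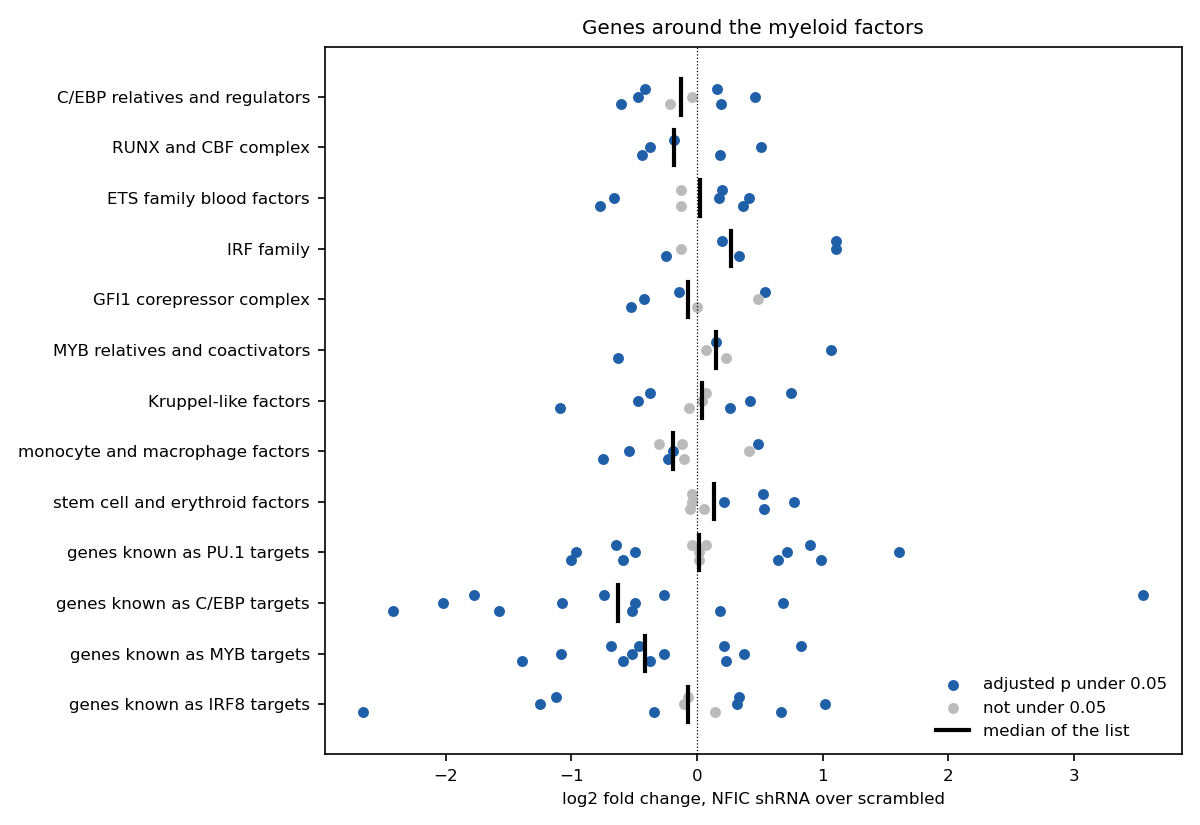
Log2 fold change of each tested gene in 13 lists of relatives, partners and known targets of the 10 factors, 1 list per row, with the list median as a black line. Blue points passed the edgeR test and grey points did not. The median is lowest for the C/EBP targets (-0.63) and the MYB targets (-0.42), and a gene in more than 1 list is drawn in each.

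For the factor with the largest rise and the one with the largest fall, the genes most like it were looked up among 15379 genes, by the root mean square difference in log2 CPM over the 6 libraries after centring on the control mean. Closest to CEBPE were LMBR1L (0.038), PCGF3 (0.0458) and MAP1LC3B (0.0466). Closest to CEBPA were AL160408.2 (0.0258), IRF2BP2 (0.0309) and POLG2 (0.033). With 6 libraries in 2 groups, this likeness is mostly that of the change between the groups.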

How the data were processed

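Bulk RNA of 6 THP-1 samples was measured, 3 per group as the labels group them. Scrambled replicates 1, 2 and 3 are titled C1, C3 and C4, whereas the study's text names its controls C1, C2 and C4. Per the methods and the labels, the authors trimmed reads with Trim Galore, mapped them to GRCh38 with STAR and counted them per gene with featureCounts on Ensembl release 96. Versions and the strand setting are not given in the sources used here. The deposited counts are not normalized. The deposited FPKM were computed by the authors from normalized counts and gene length. The authors' DESeq2 columns and normalized counts were not used.

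Counts were fitted in edgeR 4.0.16 under R 4.3.3, with TMM scaling, its low-count filter and robust quasi-likelihood fits, without a replicate block. The standard error is the absolute log2 fold change divided by the square root of F. Ratios used counts plus 0.5. Positions are from GENCODE 44 and promoter windows from RefSeq. The fit was tested on simulated data, where it recovered most changes but made more false calls than the threshold allows. Far fewer genes were changed there than were called here, so its share of false calls does not carry over to these data as a number. Whether the p-values given here are too small as well was not tested. Calls close to the threshold, such as that of CEBPB, depended on the fit. Alternatives were DESeq2 1.42.0, other scalings and filters, a replicate block and leaving out each library.

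The members, lists and tests were chosen with earlier results of these data known. All 10 members and NFIC are named, and from each list up to 3 genes per direction with the largest called change at a mean log2 CPM of at least 1, of which the text gives a part. CEBPA-DT, other genes overlapping a member and the marker genes with their values were named outside this rule. A gene chosen by this rule is not reported here.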

Additional observations from a re-analysis of the deposited data

How the results depend on the processing

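CEBPA, CEBPE, GFI1 and IRF8 kept their direction and their call in all 7 other fits and all 6 fits that left out 1 library. CEBPB did not. Its log2 fold change was 0.19 with upper-quartile scaling (adjusted p = 0.149 from edgeR) and 0.23 with at least 10 counts in every sample (adjusted p = 0.0571), and between 0.14 and 0.34 with 1 library left out. SPI1 lay between 0.0578 and 0.13 with 1 library left out. CEBPD, at 0.03, was -0.0277 with upper-quartile scaling and between -0.0264 (without NFIC shRNA replicate 2) and 0.0622 with 1 library left out. KLF4 lay between -0.0038 and 0.21, the lowest without scrambled replicate 2. Upper-quartile scaling moved the median log2 fold change of all genes from -0.01 to -0.07 and the calls from 5676 higher and 5810 lower to 4953 and 6503. The causes of these shifts were not tested.

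The labels number the samples 1 to 3 in both groups, but the deviations of same-numbered samples correlated at 0.0563, -0.0862 and -0.0446 across genes, and 1 of 6 samples correlated best with its own number, so they were not taken as pairs. With the replicate number as a block, 10983 genes were called in place of 11486, and the adjusted p from edgeR was 5.10e-05 for CEBPA and 0.0492 for CEBPB. The block changed no call among the 10 factors. With 3 libraries a group, changes as small as those of CEBPD, RUNX1 and MYB were not detectable.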
